A study of Homo sapiens with 6 samples.

Results

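The genes described here are 240 expressed protein-coding genes of human chromosome 10, taken in RefSeq order from SVIL to ZNF511, and the question is how evenly they were lower in NCCRP1 clone 6 and which of them were not. A gene was taken if its value was above 0 in all 6 libraries and its mean log2 RPKM (a read density scaled to gene length and to library depth) was 2 or more, and 26 genes named in the rule were left out. Of 568 protein-coding genes with a row in this stretch, 214 were listed at 0 in every library, 31 at 0 in some libraries, and 61 were above 0 everywhere with a mean under 2. Of the 262 that met the level rule, 22 were among the named exclusions, which left 240, out of 8860 protein-coding genes of all chromosomes that met the same level rule. The members were chosen by measured values, their level and the low values of clone 6 along this stretch, so the difference of clone 6 is given as a description, with no test.

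KYSE150, the parent line, is an established cell line from a human squamous carcinoma of the oesophagus. NCCRP1 clones 6, 1 and 17 stably carried an NCCRP1 expression construct, and mock clones 1, 4 and 5 stably carried the empty pIRES2-EGFP vector. NCCRP1 encodes a protein with the F-box-associated domain found in ubiquitin ligase adaptors. Each group of 3 is therefore 3 transfected lines, each of them 1 clone with 1 library of total RNA depleted of ribosomal RNA and sequenced on an Ion Torrent instrument. The names of the deposited data carry the number 14 for NCCRP1 clones 6 and 17 and mock clone 5. They carry 15 for NCCRP1 clone 1 and mock clones 1 and 4. This number is taken here to be the sequencing run, which the sample titles do not state.

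Genes that lie next to each other on a human chromosome mostly have their own promoters and unrelated functions, and the long arm of chromosome 10 is an example. It carries FGFR2, a growth factor receptor of epithelia, and MXI1, an antagonist of MYC. The same arm holds genes for mitochondrial DNA maintenance, ribosome assembly, the spindle checkpoint and vesicle coats.

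Libraries held 12477 genes above 0 in NCCRP1 clone 6 and 12512 to 12821 in the other 5. Reads per library, estimated from the steps between microRNA values, came to about 15860000 in clone 6 and 12290000 to 18070000 in the others. NCCRP1 was listed at 8.07, 6.19 and 6.71 log2 RPKM in NCCRP1 clones 6, 1 and 17 and at 0 in the 3 mock clones. All 9 squamous keratinocyte markers, KRT5 and TP63 among them, were above 0 in every library. Their log2 values summed to 51.8 in clone 6 and 49.6 to 58.4 in the others. Clone 6 was the lowest in KRT15, at 5.75 against 7.16 to 8.90, and by less in TP63 and PKP1. In the rest of these markers it was inside the range of the others. The 4 leukocyte markers were at 0 everywhere, as were 4 of 5 fibroblast markers. The other fibroblast marker, COL1A1, was at 1.35 in clone 6 and 1.32 to 2.57 in the others. Of the 3 endothelial markers, CDH5 alone was above 0, at 0.66 in clone 6 and in no other library. The part of cell identity in the results below was not tested.

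The members were lower in NCCRP1 clone 6 by a median of about 0.5 on the log2 scale, and by about the same amount along nearly the whole stretch. The difference of clone 6 from the mean of the other 5 clones had a median of -0.50 over the 240 members, a ratio of 0.705, with quartiles of -0.66 and -0.37 and an SD of 0.28. Clone 6 was below the mean of the others in 231 members, or 96.25%, against 46.1% of all 8860 genes that met the level rule. It was the lowest of the 6 clones in 206 members, or 85.8%, against 14.1% of all these genes. In 82 members, or 34.2%, it lay below the next clone by more than the whole range of the other 5, against 1.77% of all genes. These shares describe the choice of the stretch, and nothing further is read from them. In bulk RNA, less RNA of a gene in every cell and fewer cells with that RNA cannot be told apart.

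The beginning of the stretch went against its description as low. The first 9 members, SVIL, MTPAP, ZNF438, ARHGAP12, KIF5B, EPC1, NRP1, PARD3 and CCNY, all lie on the short arm and had a median difference of 0.02, a ratio of 1.01. They ranged from -0.30 for EPC1 to 0.17 for SVIL, with ARHGAP12 at 0.13, MTPAP at 0.10, NRP1 at -0.02 and ZNF438 at -0.08, and clone 6 was the lowest of the 6 in 2 of them. SVIL, which encodes the actin-binding protein supervillin, was at 5.21 log2 RPKM in NCCRP1 clone 6, 5.10 and 5.07 in NCCRP1 clones 1 and 17, and 4.90, 5.09 and 5.02 in mock clones 1, 4 and 5. Clone 6 had the highest of these values. KIF5B, the heavy chain of kinesin 1, was at 5.43 in clone 6, 5.35 and 5.41 in NCCRP1 clones 1 and 17, and 5.27, 5.31 and 5.75 in the mock clones, so clone 6 stood inside the range of the others. PARD3, a polarity protein of epithelial junctions, was at 4.37 in clone 6, 4.23 and 4.23 in the other NCCRP1 clones, and 4.14, 4.23 and 4.43 in the mock clones, again inside the range.

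The next member, BMS1, a GTPase of ribosome assembly, lies on the long arm and was the first of an almost unbroken run of low members. It was at 2.27 in NCCRP1 clone 6, 2.92 and 2.78 in NCCRP1 clones 1 and 17, and 2.90, 2.85 and 3.07 in the mock clones. Clone 6 was lower than each of the other clones, with a difference of -0.63. The last gene before it, CCNY, the cyclin Y gene, had a difference of -0.14. The 231 members from BMS1 to ZNF511 had a median of -0.51, a ratio of 0.700. This split of 9 and 231 members was made after the values were seen.

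Genes between CCNY and BMS1 had means under 2 and are no members. ZNF33A, a zinc finger gene of the short arm, was at 1.76 in clone 6 against 1.77 to 2.27 in the other 5. ZNF37A, also on the short arm, was at 1.49 against 1.36 to 2.07. ZNF33B, the counterpart of ZNF33A on the long arm, was at 0.77 against 1.41 to 2.16. For ZNF33B clone 6 was below every other clone, whereas for ZNF37A it was inside their range. ZNF33A and ZNF33B are near copies of each other, so reads may be shared between them and their values are uncertain.

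Neither end of the stretch as named was the end of the low genes. The 61 genes before SVIL had a median of 0.06, with clone 6 lowest in 5, and the last of them, ACBD5, RAB18 and WAC, had differences of 0.16, 0.11 and 0.27. Beyond ZNF511, the 5 remaining genes that met the level rule had a median of -0.40, and clone 6 was below the mean of the others in all 5 and lowest in 4. Among these, ECHS1, an enzyme of mitochondrial fatty acid oxidation, was at 6.03 in clone 6 against 6.39 to 7.00 in the other clones, and FUOM and PAOX had differences of -0.40 and -0.35.

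**Figure D1:**
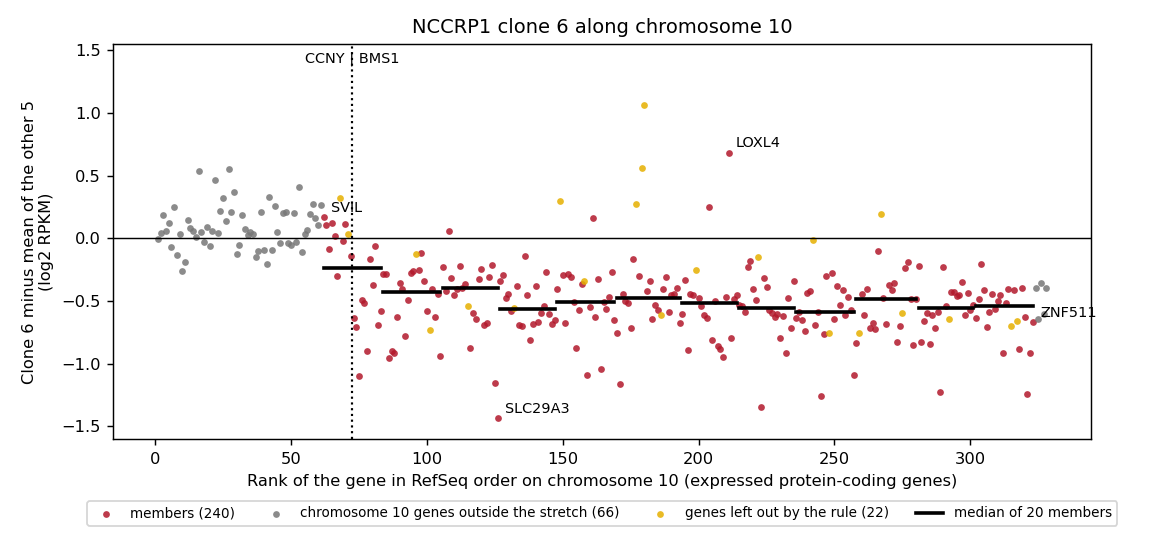
Each point is a protein-coding gene of chromosome 10 that met the level rule, placed by its rank in RefSeq order on the horizontal axis, with the log2 RPKM of NCCRP1 clone 6 minus the mean of the other 5 clones on the vertical axis. Black bars are medians of 20 consecutive members; points scatter around 0 up to CCNY and around about -0.5 from BMS1 on, with LOXL4 highest among the members and SLC29A3 lowest.

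Along the long arm the shift had no visible slope or gap. Members were put in 12 bins of 20 in chromosome order, and the first bin, which holds the 9 members of the short arm, had a median of -0.23. The other 11 bins had medians between -0.40, for REEP3 to SLC29A3, and -0.59, for ARMH3 to SH3PXD2A. In bins of the same size on other chromosomes, 417 in all, the medians of clone 6 ran from -0.39, on chromosome 7 from ZCWPW1 to VGF, to 0.38 on chromosome 19. All 11 of these bins of members lay below the lowest of the 417, the nearest at -0.398 against -0.389. The stretch was chosen for its low values in clone 6, so nothing is read from this order. The next lowest of the 417 were also on chromosome 7, PLOD3 to PSMC2 at -0.387 and ATP5MF to PILRA at -0.323. The chromosome 7 bins named here adjoin in gene order. The bins on either side, CDK6 to CPSF4 and ORC5 to IFRD1, had medians of -0.215 and -0.205. A run of neighbouring genes low in clone 6 was thus not particular to chromosome 10. Chromosome 7 as a whole had a median of -0.01. By whole chromosome, clone 6 had a median of -0.44 over the 328 chromosome 10 genes that met the level rule, and between -0.05 on chromosome 19 and 0.09 on chromosome 3 for the rest.

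Along this stretch, which was chosen for clone 6, no other clone had bins of that depth. Bins on other chromosomes were made for clone 6 only, so low stretches of the other clones elsewhere were not looked for. When each other clone was set against the remaining 4, clone 6 left out, the medians of its member bins lay between -0.18 and 0.27. Over all members, the median was 0.02 in NCCRP1 clone 1 and -0.01 in NCCRP1 clone 17. In mock clones 1, 4 and 5 it was -0.07, -0.04 and 0.12. The higher median of mock clone 5 was also there in the 61 genes before SVIL, at 0.17, and this clone was the highest of the 6 in 96 members.

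**Figure D2:**
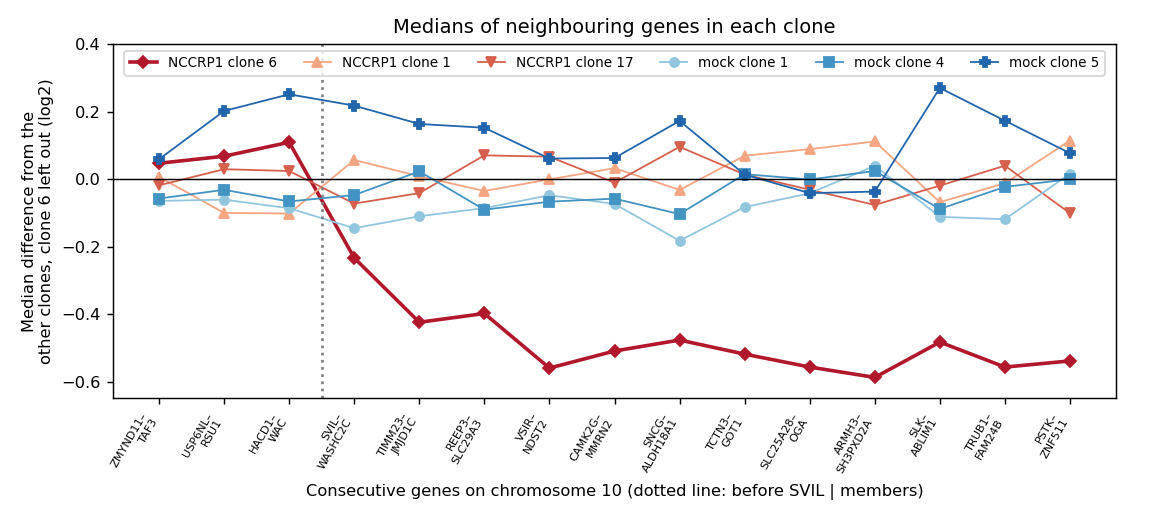
Medians over consecutive chromosome 10 genes (3 bins before SVIL, then 12 bins of 20 members) are drawn for each clone, as the log2 difference from the other clones with clone 6 left out of the comparison for all but itself. The line of NCCRP1 clone 6 lies at 0.05 to 0.11 before SVIL and at -0.40 to -0.59 from the bin starting with TIMM23 on, while the other 5 clones stay between -0.18 and 0.27 in every bin of members.

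The summed level shows the size of the shift in linear units. The 231 members from BMS1 to ZNF511 summed to 3906 RPKM in NCCRP1 clone 6, 5642 and 5392 in NCCRP1 clones 1 and 17, and 5315, 5411 and 5453 in mock clones 1, 4 and 5. The other 5 sums lay close together and clone 6 stood apart below them. The median level of these members was 3.22 log2 RPKM in clone 6 against 3.66 to 3.83 in the others, while genes of other chromosomes had medians of 4.06 in clone 6 and 4.00 to 4.05 in the others.

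The choice of clones to compare with moved the median little. Against single clones it was -0.53 for NCCRP1 clone 1, -0.52 for NCCRP1 clone 17, -0.45 for mock clone 1, -0.49 for mock clone 4 and -0.60 for mock clone 5. Against the clones of the same run, NCCRP1 clone 17 and mock clone 5, it was -0.55, and against the 3 clones of the other run it was -0.49.

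With the named exclusions left out, the single members were spread around the shift about as widely as genes elsewhere around no shift. The 231 members from BMS1 to ZNF511 had an SD of 0.26 and a median absolute deviation of 0.139, and the 8532 genes of other chromosomes had 0.26 and 0.141. Of the members, 172, or 74.5%, lay within 0.25 of their own median, against 74.8% of the genes of other chromosomes within 0.25 of theirs. No genes were left out by name on other chromosomes, so the sets compared were not chosen alike. The 22 named exclusions that met the level rule, ITGB1 and CUL2 of the short arm among them, were spread more widely. Their SD was 0.503, their median absolute deviation 0.359, and 22.7% lay within 0.25 of their own median. The spread of the members with these genes put back was not tested. As ratios, 151 members, or 65.4%, were at 0.6 to 0.8 times the other clones, where 6.45% of the genes of other chromosomes lay. A further 28 were at 0.5 to 0.6 times, 11 under 0.5 times, 37 at 0.8 to 1 times and 4 above the mean of the other clones. The members nearest the median of all 240 were ATAD1, which extracts misplaced proteins from the mitochondrial outer membrane, TSPAN14, a tetraspanin, and PI4K2A, a phosphatidylinositol kinase. ATAD1 was at 3.23 log2 RPKM in clone 6 against 3.51 to 4.05 in the other clones, TSPAN14 at 3.47 against 3.80 to 4.11, and PI4K2A at 3.39 against 3.76 to 4.02.

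**Figure D3:**
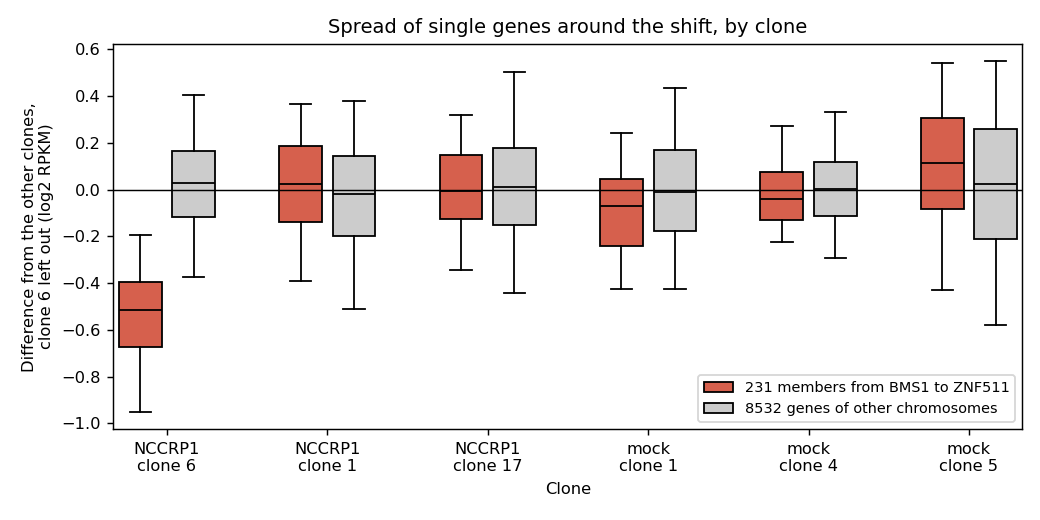
Boxes give the median and quartiles, and whiskers the 5th and 95th percentiles, of the log2 differences of single genes in each clone, for the 231 members from BMS1 to ZNF511 and for 8532 genes of other chromosomes. In NCCRP1 clone 6 the members' box is as tall as that of the other chromosomes but centred at -0.51 instead of 0.03, and in the other 5 clones the members' medians lie between -0.07 and 0.11.

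Genes left out by the level rule were mostly low as well, with a wider spread. The 55 protein-coding genes between BMS1 and ZNF511 that were above 0 everywhere with a mean under 2 had a median of -0.57, and clone 6 was the lowest in 39 of them. Their SD was 0.45. Clone 6 was below the mean of the others in 49 of them and above it in 6, by up to 0.98. Of 10 long noncoding RNA genes there, 9 were below the mean of the others, with a median of -0.62. One of these, JMJD1C-AS1, was at 0.09 in clone 6 against 1.11 to 1.52 in the other clones, and it overlaps a protein-coding gene, and since the counting is not stated to use strand, reads of the pair cannot be told apart. The 9 pseudogenes had a median of 0.11, and those above 0 included RPL13AP6 and HNRNPA3P1, which have near-identical copies elsewhere in the genome and so are uncertain.

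No gene listed at 0 in some library reached a mean of 2, so the mean in the level rule already left these genes out. That mean includes clone 6, so a low value of clone 6 could itself take a gene out of the members. What this did to the spread of the members was not tested. In the stretch from BMS1 to ZNF511, 11 protein-coding genes were at 0 in exactly 1 library, and that library was clone 6 for 10 of them and NCCRP1 clone 17 for the other. The 10 were PGBD3, MACROH2A2, ZCCHC24, RPP30, TBC1D12, CCNJ, ENTPD7, KCNIP2, NANOS1 and LRRC27. Over all protein-coding genes, 63 of 218 such genes were at 0 in clone 6 and 61 in NCCRP1 clone 1. MACROH2A2, a variant histone gene, was listed at 0 in clone 6 and at 2.82, 1.83, 2.63, 2.21 and 2.13 in NCCRP1 clones 1 and 17 and mock clones 1, 4 and 5. Its difference was -2.32, and its mean over all clones, 1.94, was under 2 only through clone 6. The 22 named exclusions that met the level rule ran from -0.76 for COL17A1 to 1.06 for IFIT3, with a median of -0.29.

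At the threshold itself, the members just inside a mean of 2 were DENND10, POFUT4 and C10orf95, with differences of -0.61, -0.27 and -1.26. The genes just outside were ZNF33A, MINPP1 and SHLD2, with differences of -0.27, -0.44 and -0.57. Their means over the other 5 clones were 2.03, 2.05 and 2.06, so they fell under 2 only through clone 6.

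Members of 8 lists by function, 150 of the 196 genes listed, were lower in clone 6 in every list, with medians between -0.60 and -0.32. Over all members the median was -0.50, and over all 8860 genes 0.02. Clone 6 was the lowest of the 6 clones in 85.8% of all members and 14.1% of all 8860 genes. The counts of each list below stand beside these shares, and nothing about the functions is read from them. The lists were made knowing earlier results of these data.

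Among genes of growth signalling and tumour suppression, 21 of 28 were members, with a median of -0.41. All 21 were below the mean of the other clones, and clone 6 was lowest in 17. MXI1 was at 2.04 in NCCRP1 clone 6, 2.65 and 3.11 in NCCRP1 clones 1 and 17, and 2.40, 2.68 and 2.94 in the mock clones. Clone 6 was below all others, with a difference of -0.72. FGFR2 was at 3.94 in clone 6, next to 3.99 in NCCRP1 clone 1, with the others at 4.29 to 4.49. DLG5, a scaffold protein of cell polarity, was at 4.51 against 5.00 to 5.27. GRK5, a kinase that desensitises G protein-coupled receptors, was the lowest of the list at 1.11 against 2.06 to 2.67, a difference of -1.22. BMPR1A, a receptor for bone morphogenetic proteins, had a mean under 2 and was no member, at 1.27 in clone 6 against 1.36 to 1.86. The members of this list with the highest level, TRIM8 and RGS10, were among the exceptions. TRIM8, a ubiquitin ligase, was at 5.53 in clone 6, and mock clone 5 was lower at 5.38. RGS10, a regulator of G protein signalling, was at 5.17, and mock clone 1 was lower at 4.95.

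Of the mitochondrial genes, 28 of 32 were members, with a median of -0.54 and clone 6 lowest in 24. GHITM, an inner membrane protein, was at 5.98 in NCCRP1 clone 6, 6.58 and 6.44 in NCCRP1 clones 1 and 17, and 6.50, 6.44 and 6.77 in the mock clones. PPIF, the cyclophilin of the permeability transition pore, was at 5.43 in clone 6 against 5.81 to 6.10. In both genes clone 6 lay below the range of the other 5. TFAM, which packages and transcribes mitochondrial DNA, was at 3.02 against 3.19 to 3.54, a difference of -0.34. OAT, ornithine aminotransferase, was at 5.83 against 6.06 to 6.57. The exceptions here were MTPAP on the short arm, and CISD1, PPA1 and NDUFB8, in which 1 or more other clones were lower than clone 6.

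Of the genes for RNA processing, ribosome making and translation, 20 of 22 were members, with a median of -0.45 and clone 6 lowest in 18. HNRNPF, a splicing regulator, was at 6.44 in NCCRP1 clone 6, 6.81 and 6.88 in NCCRP1 clones 1 and 17, and 6.94, 6.97 and 7.05 in the mock clones. Its other 5 values lay within a narrow range and clone 6 below it, with a difference of -0.50. EIF3A, the largest subunit of translation initiation factor 3, was the lowest of the list at 3.88 against 4.61 to 4.90. NOLC1 and RRP12, both of ribosome assembly, had differences of -0.44 and -0.45, but RRP12 at 5.83 in clone 6 was close to 5.91 in NCCRP1 clone 17 and 6.00 in mock clone 5, the clones of the same run.

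Genes of mitosis, replication and repair contributed 18 of 23, with a median of -0.48 and clone 6 lowest in 16. BUB3, of the spindle checkpoint, was at 4.79 in NCCRP1 clone 6, 5.39 and 5.31 in NCCRP1 clones 1 and 17, and 5.20, 5.22 and 5.20 in the mock clones. SMC3, a cohesin subunit, was at 3.43 in clone 6 against 3.60 to 4.17. Both were lower in clone 6 than in every other clone. MMS19, which helps to insert iron-sulfur clusters into DNA repair enzymes, was at 4.40 against 4.84 to 5.21. ZWINT, of the kinetochore, had a smaller difference of -0.25, at 5.77 against 5.83 to 6.28. TUBGCP2, of the gamma-tubulin complex and the last but one member in order, had the largest difference of the list at -0.92.

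Cytoskeleton and adhesion genes had 16 members of 23 and the median nearest 0, at -0.32, with clone 6 lowest in 11. Of the 5 in which it was not lowest, SVIL, ARHGAP12, KIF5B and PARD3 lie on the short arm, and the other is ACTA2. MYOF, a membrane repair protein, was at 6.88 in clone 6 against 6.98 to 7.36. VCL, the adhesion protein vinculin, was at 4.82 in NCCRP1 clone 6, 4.91 and 5.39 in NCCRP1 clones 1 and 17, and 4.97, 5.19 and 5.09 in the mock clones. Clone 6 was lowest in both, by less than 0.25 from the next clone. ANXA7, an annexin, was at 5.53 against 5.74 to 6.10. SH3PXD2A, a scaffold of invadopodia, had a difference of -1.09, at 1.37 against 2.27 to 2.62.

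Membrane traffic and lysosome genes had 20 members of 22, a median of -0.49, and clone 6 lowest in 19, all but LIPA, the lysosomal acid lipase. PSAP, the precursor of the saposins and the member with the highest level, was at 7.77 in clone 6 against 7.84 to 8.32. SEC24C, of the COPII vesicle coat, was at 5.01 against 5.41 to 5.71. GBF1, an exchange factor for ARF GTPases at the Golgi, was at 4.98 against 5.25 to 5.47. In these 3 genes clone 6 was below every other clone. WASHC2A and WASHC2C are near-identical copies of each other and their separate values are uncertain.

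Metabolic enzymes had 15 members of 21, a median of -0.35, and clone 6 lowest in 12, with P4HA1, GPAM and CHST15 as the others. UROS, of haem synthesis, was at 2.97 in NCCRP1 clone 6, 4.06 and 3.67 in NCCRP1 clones 1 and 17, and 3.93, 3.93 and 3.83 in the mock clones. Clone 6 was far below the other 5, with a difference of -0.91. GOT1, the cytosolic aspartate aminotransferase, was at 4.66 against 4.92 to 5.29. XPNPEP1, an aminopeptidase, was at 4.45 against 4.97 to 5.37, and OGA, which removes O-linked N-acetylglucosamine from proteins, at 4.79 against 4.85 to 5.30. Transcription and chromatin genes had 12 members of 25, and clone 6 was the lowest in all 12, with a median of -0.60. LDB1, a cofactor of LIM-domain factors, was at 4.91 against 5.46 to 5.69. ZRANB1, a deubiquitinase, was at 3.13 against 3.47 to 4.15. ZMIZ1, a transcriptional coactivator, was at 1.34 against 1.73 to 2.87, a difference of -1.09 within a list range that ended at -0.30 for EPC1.

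**Figure D4:**
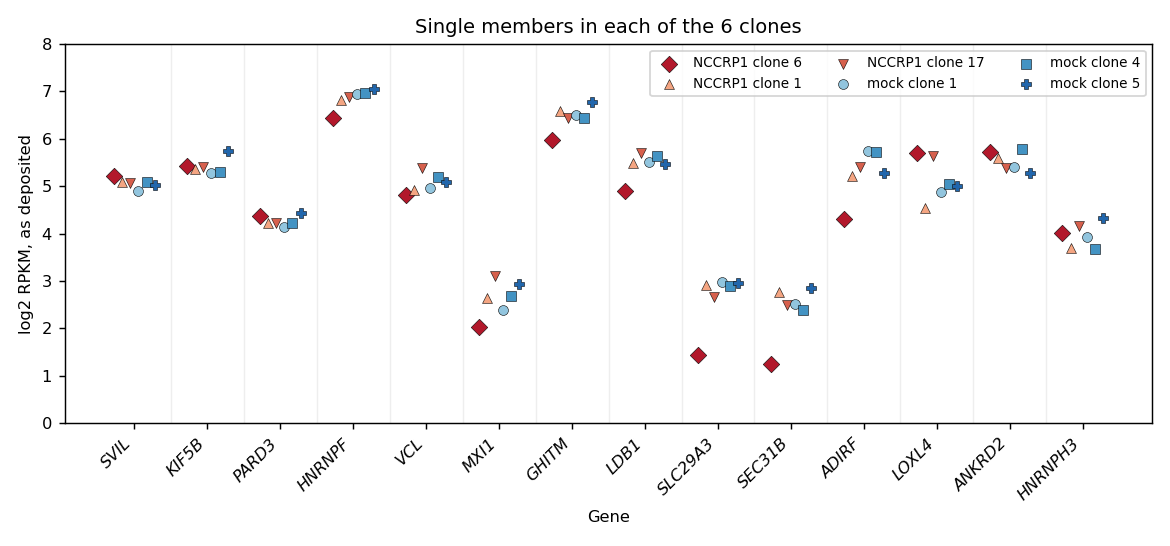
Deposited log2 RPKM of 14 members in chromosome and role order in each of the 6 clones, NCCRP1 clone 6 first. In SVIL, KIF5B and PARD3 clone 6 lies within or above the other clones, and in HNRNPF, VCL, MXI1, GHITM and LDB1 below them. It lies further below them in SLC29A3, SEC31B and ADIRF, and within their range or above it in LOXL4, ANKRD2 and HNRNPH3.

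The members furthest below the shift were mostly of low level. SLC29A3, an endosomal nucleoside transporter, had the lowest difference, at 1.45 log2 RPKM in NCCRP1 clone 6, 2.92 and 2.66 in NCCRP1 clones 1 and 17, and 2.97, 2.90 and 2.96 in the mock clones. Its difference of -1.44 is a ratio of 0.370, and the other 5 clones lay close together. SEC31B, a paralogue of the COPII outer coat subunit SEC31A, followed at 1.25 against 2.39 to 2.86, a difference of -1.35. C10orf95 had -1.26 and the metalloproteinase gene ADAM8 had -1.24. ADIRF, the adipogenesis regulatory factor gene, was the one of the 10 lowest with a level above 4, at 4.31 in clone 6 against 5.21 to 5.75. The rest of these 10 were GRK5, UNC5B, RASGEF1A, SH3PXD2A and ZMIZ1, with differences of -1.22 to -1.09. In all 10, clone 6 was lower than every other clone. ANXA8L1, at -0.96, and ANXA8 are near-identical copies, so how reads were divided between them is uncertain.

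Among the members, exceptions on the long arm were few. Clone 6 was not the lowest in 27 of the 231 members from BMS1 to ZNF511, and in 23 of these it was still below the mean of the others. The neighbours in order, RASSF4, DEPP1 and ZNF22, were all exceptions, with differences of -0.17, -0.38 and -0.06. ZNF22, a zinc finger gene, was at 2.27 in clone 6, 2.41 and 2.50 in NCCRP1 clones 1 and 17, and 2.01, 1.88 and 2.87 in the mock clones. ZNF32, the member just before these in order, was by contrast at 1.91 against 2.41 to 3.01. The 22 named exclusions that met the level rule are not counted here. Clone 6 was lowest in 11 of them, below the mean of the others in 15 and above it in 7. Those above on the long arm were IFIT3, IFIT2, PLAU, FAS and DUSP5, with differences of 1.06, 0.56, 0.30, 0.27 and 0.19.

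In 4 members of the long arm, LOXL4, ANKRD2, EIF5AL1 and HNRNPH3, clone 6 was above the mean of the others. LOXL4, a lysyl oxidase that cross-links matrix proteins, stood out at 0.68, a ratio of 1.61. It was at 5.70 in NCCRP1 clone 6, 4.53 and 5.63 in NCCRP1 clones 1 and 17, and 4.87, 5.05 and 5.00 in the mock clones. NCCRP1 clones 6 and 17 were thus high together, with NCCRP1 clone 1 the lowest of all. ANKRD2, an ankyrin repeat gene first described in muscle, was at 5.73 in clone 6 against 5.27 to 5.78, inside the range. HNRNPH3, another splicing regulator of the HNRNPF family, was at 4.02 against 3.68 to 4.34, also inside the range. EIF5AL1, at 7.33 against 7.02 to 7.33, is a near-identical copy of EIF5A on another chromosome, whose own difference was -0.00, so its value is uncertain.

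The promoter windows of 3 of these exceptions and of the lowest member are shown to let the letters be compared beside the values. Each is 300 bases from RefSeq (GRCh38.p14), 250 before and 50 after the annotated start, written 5′ to 3′ along the gene's strand. Capitals mark the motifs searched on both strands, the GC box GGGCGG or CCGCCC, the CCAAT box CCAAT or ATTGG, and the TATA box TATAAA or TTTATA. The windows are LOXL4 at chr10:98268145-98268444 on the minus strand, ANKRD2 at chr10:97572191-97572490, HNRNPH3 at chr10:68331443-68331742 and SLC29A3 at chr10:71319009-71319308 on the plus strand.
LOXL4: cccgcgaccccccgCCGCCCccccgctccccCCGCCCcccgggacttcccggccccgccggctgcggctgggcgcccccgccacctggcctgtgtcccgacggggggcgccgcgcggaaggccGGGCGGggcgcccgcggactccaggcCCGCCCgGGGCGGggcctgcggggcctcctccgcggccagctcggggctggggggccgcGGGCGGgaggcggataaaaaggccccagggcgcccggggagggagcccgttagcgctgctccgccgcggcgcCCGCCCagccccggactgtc
ANKRD2: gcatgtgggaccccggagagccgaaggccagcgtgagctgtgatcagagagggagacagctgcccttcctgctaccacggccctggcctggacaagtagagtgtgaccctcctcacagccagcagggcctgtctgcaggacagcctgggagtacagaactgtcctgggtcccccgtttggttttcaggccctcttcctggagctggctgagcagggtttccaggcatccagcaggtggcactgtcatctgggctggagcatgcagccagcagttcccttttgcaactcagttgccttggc
HNRNPH3: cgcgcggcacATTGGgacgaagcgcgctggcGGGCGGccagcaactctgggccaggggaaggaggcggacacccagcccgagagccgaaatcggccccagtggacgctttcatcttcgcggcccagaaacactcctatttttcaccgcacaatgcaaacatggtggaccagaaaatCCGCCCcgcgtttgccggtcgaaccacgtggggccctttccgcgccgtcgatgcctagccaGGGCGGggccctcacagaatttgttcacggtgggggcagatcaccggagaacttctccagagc
SLC29A3: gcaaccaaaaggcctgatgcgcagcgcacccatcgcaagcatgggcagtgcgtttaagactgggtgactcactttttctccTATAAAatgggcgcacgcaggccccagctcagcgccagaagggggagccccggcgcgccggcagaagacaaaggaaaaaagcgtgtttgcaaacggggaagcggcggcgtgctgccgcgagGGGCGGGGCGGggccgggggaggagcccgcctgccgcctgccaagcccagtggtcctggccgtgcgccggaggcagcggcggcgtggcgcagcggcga
The LOXL4 window is 85.3% G and C and holds 7 GC boxes, and ANKRD2 holds none of the motifs, with an observed to expected CpG ratio of 0.175. HNRNPH3 holds 3 GC boxes and 1 CCAAT box. SLC29A3, the lowest member, holds 2 GC boxes that share 1 base and 1 TATA box.

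The shares of windows with each motif are given as a description. Of 204 members with a window in the table, 67.6% held a GC box, 35.3% a CCAAT box and 4.41% a TATA box, against 73.1%, 37.2% and 5.26% of the 7381 windows of all genes that met the level rule. Among the 22 windows of the 27 exceptions of the long arm, 81.8% held a GC box and 9.09% a TATA box. A match is only a run of letters in the window.

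The depth of the shift varied a little with level and more with base composition. Split by mean level into 3 sets of 77, from low to high, the 231 members from BMS1 to ZNF511 had medians of -0.60, -0.49 and -0.48. By the GC content of their transcripts the medians of 3 such sets were -0.45, -0.50 and -0.63 from the lowest to the highest. Genes of other chromosomes in similar GC ranges moved the same way in clone 6, at 0.08, 0.06 and -0.04. Across genes, which are not independent replicates and share the same libraries, Spearman's rho of the difference with GC content was -0.33 over the 231 members and -0.26 over the genes of other chromosomes. With the GC trend of each library removed, the median of the 231 was -0.52, its SD 0.252, and clone 6 was lowest in 212. Spearman's rho with GC content over the 231 was then -0.15, so the removal was not complete for them. Transcript length had a rho of 0.06 with the difference.

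**Figure D5:**
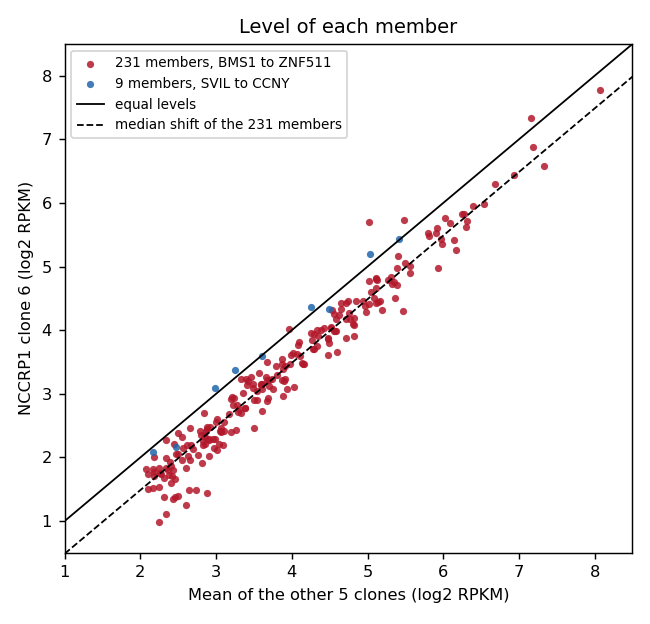
Each point is a member, with the mean log2 RPKM of the other 5 clones on the horizontal axis and the log2 RPKM of NCCRP1 clone 6 on the vertical axis. The 231 members from BMS1 to ZNF511 follow a line 0.51 below that of equal levels over the whole range, the 9 members from SVIL to CCNY lie near the line of equal levels, and LOXL4 is the point furthest above it.

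The study's own comparison, NCCRP1 clones against mock clones, includes clone 6. In limma's test over all 12737 genes tested, none of the 240 members passed an adjusted p of 0.05, against 0.102% of all genes, and 8 had an unadjusted p under 0.05, all lower, against 3.79% of all genes. The median difference of the members was -0.16, and the mean of 204 was lower in NCCRP1 clones. Every NCCRP1 clone was below every mock clone in 16 members, or 6.67%, against 6.69% of all genes, and above in 0, against 6.21%. ZNF511, which had the lowest p, averaged 5.93 ± 0.32 in NCCRP1 clones and 6.44 ± 0.08 in mock clones (SD, n = 3 each), a difference of -0.52 (SE 0.17, limma adjusted p = 0.462). Since clone 6 chose the members, nothing is read from these counts.

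Without clone 6, the members had no common direction. In the fit of NCCRP1 clones 1 and 17 against the same 3 mock clones, over 12645 genes, none of the members passed the adjusted p of 0.05, against 0.0395% of all genes. The median difference was 0.01, and the mean was lower in the NCCRP1 clones for 117 of 240 members. At an unadjusted p under 0.05 limma had 2 members higher, against 2.55% of all genes, and 0 lower, against 3.14%. Both NCCRP1 clones were below every mock clone in 16 members, or 6.67%, against 11.0% of all genes, and above in 17, or 7.08%, against 9.3%. RGS10 had the lowest p, at 5.84 and 5.66 in NCCRP1 clones 1 and 17 and 4.95, 5.30 and 5.24 in the mock clones, a difference of 0.58 (SE 0.18, limma adjusted p = 0.527). PDLIM1, a LIM-domain protein of actin fibres, had 0.44 (SE 0.19, limma adjusted p = 0.853), and both missed the threshold.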

How the data were processed

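The authors deposited 1 value per Entrez gene ID and library, headed RPKM per the file headers. The values the authors deposited are log2 RPKM, that is reads per gene scaled by length and library depth, with the logarithm taken before deposit. With the logarithm undone, values were multiplied by the length in kilobases of the longest GENCODE v29 transcript, where a gene had one, and summed. Read as log2 they gave 1130000 to 1150000 in each library, and read as natural logarithms 11500000 or more. The files hold nothing negative, so densities under 1 RPKM stand as 0, and a 0 is given only as listed. Per the submitters' processing notes, the build listed is hg19 and the tool listed is bedtools 2.25.0, with no role given, and the aligner is not given in the sources used here. Of 40448 IDs, 37997 had a RefSeq symbol, and gene order and type came from RefSeq (GRCh38.p14), not from hg19.

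No depth was stated. It was estimated from the whole-read steps of microRNA values, within a search of 8000000 to 20000000 reads, so it is known only up to a multiple or fraction outside that range, and 23.4% to 33.1% of values under 8 steps lay within 0.005 of a whole step, against 1% by chance. Counts were therefore not recovered. At these depths the members' values in clone 6 rest on a median of about 580 reads, and on about 40 for FAM24B, the lowest. Counting error is larger for low members.

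The difference of clone 6 was its log2 value minus the mean of the other 5, with no test. Differences between NCCRP1 and mock clones were fitted with limma 3.58.1 in R 4.3.3 (trended, robust, two-sided, Benjamini-Hochberg over genes above 0 in at least 3 libraries) and were tested on simulated data. The p-values speak of the spread among these 6 libraries only, since nothing tells separate transfections apart. GC content came from the longest GENCODE v29 transcript, and trends were removed by lowess with a span of 0.5. The planned reading of RPKM as linear was dropped, since the files held logarithms.

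The members, the gene lists and the rule for named genes were chosen with earlier results of these data known. Named genes were the 10 lowest and 10 highest members by the difference of clone 6, the 3 nearest the median, the first and last 3 in order with their neighbours, the 3 of highest mean in each list, genes set by name, 1 of which is not reported here, those at the threshold, and any that passed limma without clone 6. Other genes named were chosen after their values were seen. Alternatives were other clones to compare with, other scalings and filters, sequencing run as a term and each clone left out.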

Additional observations from a re-analysis of the deposited data

How the results depend on the processing

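No paired analysis was made, because the numbers are those of separate clones and pair no mock clone with an NCCRP1 clone. The median difference of the members in NCCRP1 clone 6 lay between -0.55 (against clones of the same run) and -0.46 (log2(RPKM + 1)) in the alternatives that compare with at least 2 clones, including quantile normalization at -0.49, the GC trend removed at -0.51, a mean of 4 or more at -0.48, and each other clone left out at -0.52 to -0.49. Against single clones it ran from -0.60 (mock clone 5) to -0.45 (mock clone 1). The median of the 9 members from SVIL to CCNY lay near 0 and was -0.13 against clones of the same run and 0.10 without mock clone 5. Of 831 values of the 57 named members under other settings, 819 moved by less than 1 SD of the other clones, and 12 by more. No member passed limma's adjusted p of 0.05 in either fit under any of these alternatives. Genes called over the whole table numbered 13 with all clones and 1 to 28 under the alternatives. Without clone 6 they numbered 5, and 0 to 27 under the alternatives. Members with an unadjusted p under 0.05 numbered 25 without NCCRP1 clone 1, 26 without NCCRP1 clone 17 and 2 without clone 6, against 8 with all clones. They numbered 11 in the fit without clone 6 when mock clone 5 was also left out. The share of all genes at this p was taken for the main fits only. With another NCCRP1 clone left out, clone 6, which chose the members, makes up more of the NCCRP1 mean. Nothing is therefore read from these counts. Depth limits low members most.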
